A study of Mus musculus with 12 samples.

Results

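The 10 genes described here encode the contractile apparatus of smooth muscle: Acta2, Actg2, Myh11, Tagln, Cnn1, Des, Myl9, Tpm2, Lmod1 and Smtn. The genes were chosen with earlier results of these data known, and their rows were found by gene symbol. All 10 had a row in both deposited count tables, of 23502 entries in the testis table and 51826 in the sperm table. The study is a mouse RNA-seq series of 12 libraries in 4 groups of 3, made to ask what the loss of XAP5 (gene Fam50a) in germ cells and of its paralog XAP5L (gene Fam50b) changes in the transcriptome of male germ cells. The testis groups were whole testes at P16 from WT mice and from Xap5 cKO mice, in which a floxed Xap5 allele was removed by Stra8-GFPCre, a knockin that drives Cre in germ cells and not in the somatic cells of the tubule wall. The floxed Xap5 and the Xap5l KO lines were made on C57BL/6J, and the background of the Cre line is not given in the sources used here. The control genotype the study gives for the cKO is Xap5 fl/Y, and the labels of the testis libraries say only WT. The sperm groups were cauda epididymal sperm at P56 from WT mice and from Xap5l KO mice, a global knockout made with CRISPR/Cas9 and kept as 1 line. Testes are the main readout below, because the tubule wall is part of the testis and sperm is not a smooth muscle sample.

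Seminiferous tubules are wrapped by peritubular myoid cells, flattened smooth muscle-like cells whose contraction moves fluid and released sperm toward the rete. Their contraction works as in other smooth muscle: calcium and calmodulin activate myosin light chain kinase, which phosphorylates the regulatory light chain of smooth muscle myosin and lets it pull on actin filaments, while myosin phosphatase reverses the step. The genes of this apparatus are known targets of serum response factor (SRF) and its coactivators of the myocardin family, which bind through a short DNA motif called the CArG box. Vascular smooth muscle and pericytes of the testis use the same genes, so that a whole-testis library sums all of these cells, and none of the 10 genes tells myoid cells from vascular smooth muscle.

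Acta2 and Actg2 encode closely related muscle actins, smooth muscle α-actin and γ-actin, and reads of one could be counted to the other. Their coding sequences in GENCODE M21 (GRCm38; Acta2-201 and Actg2-201), aligned with 1 gap of a codon, were identical at 955 of 1131 bases, 84.4%, with no identical run longer than 29 bases against reads of 150 bases. The first 100 bases after that gap are shown to let the spacing of the differences be seen, with the 16 differing bases in capitals.
Acta2, coding bases 13 to 112: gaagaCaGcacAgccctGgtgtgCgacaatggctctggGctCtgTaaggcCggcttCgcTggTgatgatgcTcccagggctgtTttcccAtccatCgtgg
Actg2, coding bases 10 to 109: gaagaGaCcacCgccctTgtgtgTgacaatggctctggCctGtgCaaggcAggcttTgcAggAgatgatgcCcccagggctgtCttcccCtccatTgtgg
How the authors treated reads that map to several genes is not given in the sources used here, so the split between the actins carries that limit. Acta2 and the cytoskeletal Actg1 shared the longest run of any pair with Acta2, 56 bases.

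RefSeq promoter windows (GRCm38.p6, 250 bases before to 50 after the start) were matched for 7 of the 10 genes, and Actg2, Myh11 and Tagln had no entry. CArG boxes, which read the same on both strands, were searched in these windows, exactly and with up to 1 letter off. An exact match lay in 1 of 7 windows, that of Myl9, and a match with 1 letter off in 3 of 7, those of Myl9, Lmod1 and Acta2. Of all 32851 promoter windows of the same length, 1.63% held an exact match and 21.1% a match with up to 1 letter off. The upstream parts of the Myl9 and Lmod1 windows are shown as the 2 members with matches outside annotated exons, with the matches in capitals.
Myl9, chr2:156775214-156775419, plus strand: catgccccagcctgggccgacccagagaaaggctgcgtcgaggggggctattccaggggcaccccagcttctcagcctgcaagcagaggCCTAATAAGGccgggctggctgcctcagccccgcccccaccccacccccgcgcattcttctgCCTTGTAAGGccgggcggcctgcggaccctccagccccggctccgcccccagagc
Lmod1, chr1:135324563-135324806, plus strand: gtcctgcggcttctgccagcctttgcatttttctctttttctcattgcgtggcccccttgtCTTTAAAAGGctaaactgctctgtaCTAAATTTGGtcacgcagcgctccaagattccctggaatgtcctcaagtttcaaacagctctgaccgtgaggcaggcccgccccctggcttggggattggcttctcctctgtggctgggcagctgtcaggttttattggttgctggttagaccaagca
The first match of Myl9, CCTAATAAGG, is the exact one, and the second, CCTTGTAAGG, is 1 letter off. Both of Lmod1, CTTTAAAAGG and CTAAATTTGG, are 1 letter off. The matches in the Acta2 window, CCCTATATGG and CCTTGTTTGG, lie 84 and 34 bases before the RefSeq start. No binding of a factor was measured in this series, and these matches are a description of the letters only.

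Library totals were 32251198 to 36759054 counts in testes and 38881197 to 52308452 in sperm, and the 10 genes took 0.0745% to 0.122% of the testis counts and 0.00791% to 0.0176% of the sperm counts. The targeted gene fell in each knockout, and so did its paralog. By edgeR's quasi-likelihood test, Fam50a in testes only just passed (adjusted p = 0.0495). Fam50b had 532, 539 and 197 counts in WT against 6, 0 and 7 in Xap5 cKO testes. Fam50a had 548, 705 and 689 counts in WT against 296, 487 and 649 in Xap5l KO sperm. Counts of Fam50a were 819, 811 and 988 for WT testes against 673, 616 and 651 for the Xap5 cKO, where the deletion is aimed at germ cells alone, and counts of Fam50b were 574, 440 and 419 for WT sperm against 18, 23 and 8 for the Xap5l KO. WT testis replicate 3 stood apart from the other WT libraries, with a summed level of 7 pachytene markers of 1080 counts per 1000000 (CPM) against 2120 and 2080. Of the sperm libraries, WT replicate 1 held 22800 CPM of 5 red blood cell genes, against 4510 and 6970 in the other WT libraries. Folds of the 10 genes were also fitted without each library in turn, and list counts without WT testis replicate 3 or without the first sperm library of each genotype, a fit that called 0 of all genes and so says nothing of a list. Levels are CPM after TMM scaling, which centers each library on the bulk of its genes, and "rose" or "fell" means an adjusted p under 0.05 from the quasi-likelihood test of edgeR, adjusted by Benjamini-Hochberg over all genes tested in that tissue.

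In WT testes, expression per kilobase of exon ranged over the 10 genes from 154 ± 19.7 CPM per kb for Acta2 to 3.49 ± 0.588 for Lmod1 (SD, n = 3). Myl9 was close to Acta2 at 141 ± 11.2 CPM per kb, and the ranges of these 2 genes overlapped. Below them came Tagln at 24.9 ± 6.51 and Myh11 at 23 ± 3.05 CPM per kb, which overlapped each other. Tpm2 stood at 14.6 ± 1.71 CPM per kb, clear of its neighbors on either side. Smtn at 7.88 ± 0.445 and Actg2 at 7.45 ± 0.973 CPM per kb overlapped, as did Cnn1 at 5.7 ± 0.882 and Des at 4.62 ± 0.207. The α-actin thus stood well above the γ-actin in the testis: within each WT library the Actg2 count was 0.0324 to 0.0355 of the Acta2 count. In Xap5 cKO testes the order changed at the top, with Myl9 at 219 ± 5.27 CPM per kb above Acta2 at 193 ± 9.21, and Des moved from rank 9 to rank 7. The ranks were the same when the longest transcript was used as the length.

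In Xap5 cKO testes 7 of the 10 contractile genes rose as a share of all transcripts, where 25% of all 16821 genes tested rose. By the same edgeR test 0 of 10 fell, where 28.1% of all genes fell, and 0 were lower at an unadjusted p under 0.05 or with DESeq2. That direction depends on the scaling: when libraries were scaled to the summed counts of 10 Sertoli cell markers instead, 0 of 10 rose, where 0.963% of all genes rose, and 5 of 10 fell, where 66.3% of all genes fell. By TMM, 0 of 10 passed with over 2-fold in either direction, against 4.15% of all genes higher and 10.9% lower, and the count was also 0 with DESeq2 or an unadjusted p. In 7 of 10 genes the Xap5 cKO libraries lay wholly above the WT libraries and in 0 of 10 wholly below, as they did for 29.9% and 32.4% of all genes. The median log2 fold change was 0.43 over the 10 genes and -0.01 over all genes tested, and under Sertoli scaling it was -0.38 over the 10 genes and -0.82 over all genes. The median of the 10 genes thus lay 0.44 log2 units above that of all genes under either scaling, and the sign of a single gene's value depends on which cells serve as the reference. In a whole tissue, a change in the number of cells of a type and a change in RNA per cell cannot be told apart.

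**Figure D1:**
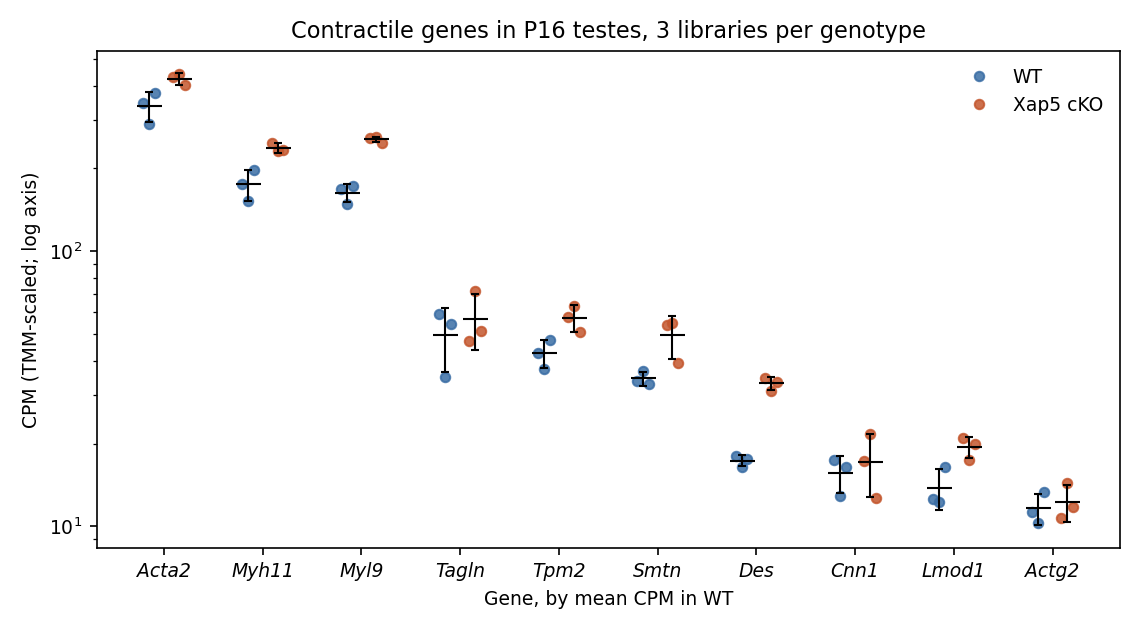
CPM of the 10 contractile genes in each testis library on a log axis, WT in blue and Xap5 cKO in orange, with the mean and SD in black (n = 3). The 3 cKO points lie above the 3 WT points for Acta2, Myh11, Myl9, Tpm2, Smtn, Des and Lmod1 at TMM scaling, and overlap them for Tagln, Cnn1 and Actg2.

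Of the thin filament actins, Acta2 (chr19:34241090-34255590, minus strand) encodes the main actin of vascular smooth muscle and of peritubular myoid cells. It had 347, 290 and 375 CPM in WT against 430, 439 and 401 CPM in Xap5 cKO testes. The groups did not overlap, and the 1.26-fold rise (95% interval 1.09 to 1.45) passed the test at TMM scaling (adjusted p = 0.0131 by edgeR's quasi-likelihood test), while at Sertoli scaling the value was -0.49 on the log2 scale and also passed (adjusted p = 0.00523). Actg2 (chr6:83512905-83536265, minus strand), the γ-actin of visceral smooth muscle, had 11.3, 10.3 and 13.3 CPM in WT and 10.7, 14.4 and 11.8 CPM in cKO testes. Its groups overlapped, its fold was 1.06 with an interval of 0.803 to 1.4, and its adjusted p was 0.71 by edgeR's quasi-likelihood test. As a share of the counts of the other 9 genes, Actg2 was 0.0129, 0.0139 and 0.0142 in WT and 0.00913, 0.0121 and 0.0109 in cKO libraries, without overlap.

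The thick filament genes were Myh11 (chr16:14194535-14291372, minus strand), which encodes the smooth muscle myosin heavy chain, and Myl9 (chr2:156775420-156781658, plus strand), which encodes the regulatory light chain that the kinase phosphorylates. Myh11 had 175, 152 and 198 CPM in WT against 248, 231 and 233 CPM in cKO testes. Its 1.36-fold rise (interval 1.18 to 1.57) had an adjusted p of 0.0032 by edgeR's quasi-likelihood test, against a log2 value of -0.38 at Sertoli scaling. Myl9 had 168, 149 and 173 CPM in WT and 257, 260 and 248 CPM in cKO testes. Every cKO library was above every WT library, and the 1.56-fold rise (interval 1.4 to 1.73) had an adjusted p of 8.01e-05 by edgeR's quasi-likelihood test, against a log2 value of -0.18 at Sertoli scaling that did not pass (adjusted p = 0.202).

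Among the proteins that bind the thin filament, Tpm2 (chr4:43514711-43523765, minus strand) encodes β-tropomyosin, which lies along the actin filament. Tpm2 had 42.6, 37.5 and 47.5 CPM in WT and 57.7, 63.3 and 50.7 CPM in cKO testes, a 1.35-fold rise at TMM scaling (interval 1.12 to 1.62; adjusted p = 0.0128 by edgeR's quasi-likelihood test) and a log2 value of -0.38 at Sertoli scaling. It lost its call without WT replicate 2 (adjusted p = 0.0513) or without Xap5 cKO replicate 2 (adjusted p = 0.0514). Lmod1 (chr1:135324807-135368065, plus strand) encodes leiomodin 1, which nucleates actin filaments in smooth muscle. It had 12.6, 12.3 and 16.5 CPM in WT and 20.9, 17.5 and 20 CPM in cKO testes, 1.41-fold higher at TMM scaling (interval 1.1 to 1.81; adjusted p = 0.0251 by edgeR's quasi-likelihood test) with a log2 value of -0.32 at Sertoli scaling. Its call held in only 2 of the 6 fits that leave out 1 library, being lost without WT replicate 1 or 2 or without cKO replicate 1 or 3, with adjusted p of 0.0797, 0.0888, 0.0879 and 0.0718. Smtn (chr11:3517523-3540612, minus strand) encodes smoothelin, an actin-associated protein of contractile smooth muscle. It had 33.9, 36.7 and 32.9 CPM in WT and 54.1, 54.8 and 39.4 CPM in cKO testes, with replicate 3 the lowest of the cKO libraries but still above WT. Its rise was 1.43-fold at TMM scaling (interval 1.16 to 1.76; adjusted p = 0.00962 by edgeR's quasi-likelihood test), against a log2 value of -0.28 at Sertoli scaling. Exons of Smtn overlap the genes Gm11946 and Gm11947 on the other strand, and whether counting used the strand is not given in the sources used here.

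The other thin filament genes did not pass the test at TMM scaling. Tagln (chr9:45929619-45936058, minus strand), which encodes transgelin (SM22α), an actin cross-linker, had 59.3, 34.8 and 54.2 CPM in WT and 47.4, 71.9 and 51.4 CPM in cKO testes. Cnn1 (chr9:22099216-22109630, plus strand), which encodes calponin 1, an inhibitor of the myosin ATPase, had 17.5, 12.9 and 16.4 CPM in WT and 17.3, 21.6 and 12.7 CPM in cKO testes. In both genes WT replicate 2 was the lowest WT library and cKO replicate 2 the highest of all, and the groups overlapped. The folds were 1.15 (interval 0.827 to 1.6) and 1.1 (interval 0.793 to 1.53), so that changes in either direction remain within the intervals. At Sertoli scaling Tagln was -0.62 and Cnn1 -0.66 on the log2 scale, past the test with adjusted p of 0.03 and 0.0313 by edgeR's quasi-likelihood test. Exons of Tagln overlap Pcsk7 and Gm48529 on the other strand.

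Des (chr1:75360329-75368579, plus strand) encodes desmin, the muscle intermediate filament that links dense bodies. It had 18, 16.5 and 17.6 CPM in WT against 34.7, 31.2 and 33.4 CPM in cKO testes. The libraries of each genotype lay close together and the 1.91-fold rise (interval 1.62 to 2.26; adjusted p = 0.000109 by edgeR's quasi-likelihood test) was the highest fold of the 10 genes. Des was the only one of the 10 with a value above 0 under both scalings, at 0.93 ± 0.11 on the log2 scale (SE) by TMM and 0.11 ± 0.16 at Sertoli scaling, the latter not past the test (adjusted p = 0.546). Exons of Des overlap Gm15179 on the other strand.

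**Figure D2:**
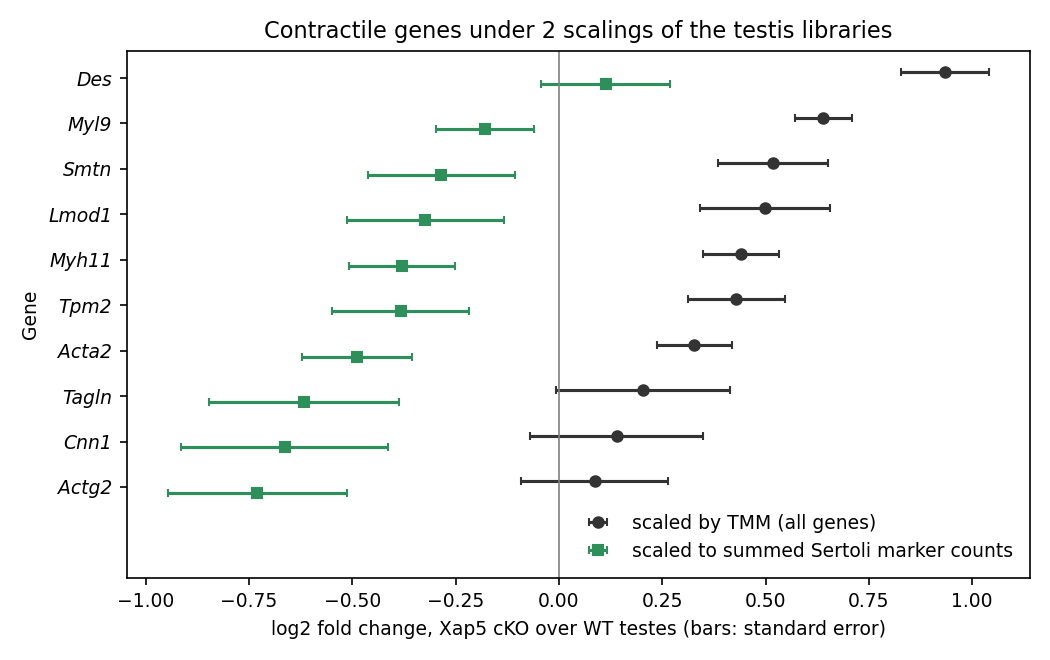
Log2 fold change of each contractile gene between Xap5 cKO and WT testes with its standard error, from libraries scaled by TMM (black circles) and from libraries scaled to summed Sertoli marker counts (green squares). Values run from 0.09 (Actg2) to 0.93 (Des) by TMM and from -0.73 (Actg2) to 0.11 (Des) at Sertoli scaling, with Des and Myl9 the 2 highest and Actg2 the lowest under both.

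Ratios between genes of one library do not depend on the scaling. The Des count was 0.0517, 0.0568 and 0.0469 of the Acta2 count in WT libraries and 0.0807, 0.0711 and 0.0833 in cKO libraries, 1.51 times higher in the mean and without overlap. Myl9 was 0.485, 0.514 and 0.463 of Acta2 in WT and 0.598, 0.591 and 0.619 in cKO libraries, 1.24 times higher and also without overlap. For the other 7 genes the ratio to Acta2 overlapped between genotypes, with the ratio of means between 0.844 (Actg2) and 1.13 (Lmod1). With 3 libraries against 3, an exact two-sided permutation test of such a ratio cannot give a p below 0.1, so no p is given. The ratios of Des and Myl9 to Acta2 were thus higher in every cKO library than in any WT library, whatever the scaling, which was not tested. How many of all genes have a ratio to Acta2 without overlap is not given here.

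The summed level of the 10 genes was 886, 751 and 944 CPM in WT against 1180, 1200 and 1100 CPM in cKO testes. Markers of other somatic cells moved at the same time and their part in the result was not tested. The summed level of 10 Sertoli markers, led by Clu, was 4750 to 5190 CPM in WT and 8260 to 9800 CPM in cKO testes, that of 8 stromal fibroblast markers, led by Dcn, 474 to 602 and 935 to 1060 CPM, and that of 8 leukocyte markers, led by Lyz2, 107 to 163 and 229 to 305 CPM. The 6 Leydig markers, led by Insl3, summed to 193 to 336 CPM in WT and 389 to 737 CPM in cKO testes. The 8 endothelial markers, led by Cdh5, summed to 94.5 to 114 and 142 to 153 CPM, and 8 pericyte markers, led by Mcam, overlapped at 171 to 186 and 174 to 210 CPM. The 7 pachytene markers summed to 1080 to 2120 CPM in WT and 150 to 236 CPM in cKO testes, and 8 spermatogonial markers to 665 to 740 and 459 to 495 CPM. Skeletal muscle markers were low, with 9 genes summing to 7.64 to 11.7 CPM in WT and 5.47 to 7.51 CPM in cKO testes. These ranges did not overlap, and Mb was at 0 in all 6 libraries.

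Set against these lists within each library, the contractile sum differed by partner. It was 0.186, 0.145 and 0.19 of the Sertoli sum in WT and 0.141, 0.146 and 0.112 in cKO libraries, which overlap, and without Clu, the most abundant Sertoli gene, 0.569, 0.459 and 0.584 against 0.434, 0.438 and 0.408, which do not. Against stromal fibroblast markers it was 1.61, 1.58 and 1.57 in WT and 1.21, 1.29 and 1.04 in cKO libraries. Against pericyte markers it was 5.08, 4.39 and 5.07 in WT and 5.61, 6.34 and 6.34 in cKO libraries, but this rests on Mcam, the most abundant marker of the list and the only one that fell by TMM. Without Mcam the ratio was 9.42, 8.7 and 8.96 in WT and 8.45, 9.28 and 10 in cKO libraries, which overlap. Against endothelial markers the ratio was 8.65, 7.95 and 8.26 in WT and 7.71, 7.94 and 7.77 in cKO libraries, close to level at 0.942 of the WT mean. In proportion, the contractile sum was lower in every cKO library than in any WT library against stromal, leukocyte and Sertoli (without Clu) markers. Against endothelial markers it was also lower, by a narrow margin. That list is led by Cdh5, which rose by TMM from a mean of 34.3 CPM in WT to 59.1 CPM in cKO testes. The ratio without Cdh5 was not taken, so the endothelial difference may rest on that gene. Against Leydig markers and against pericyte markers without Mcam the contractile sum overlapped between genotypes.

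**Figure D3:**
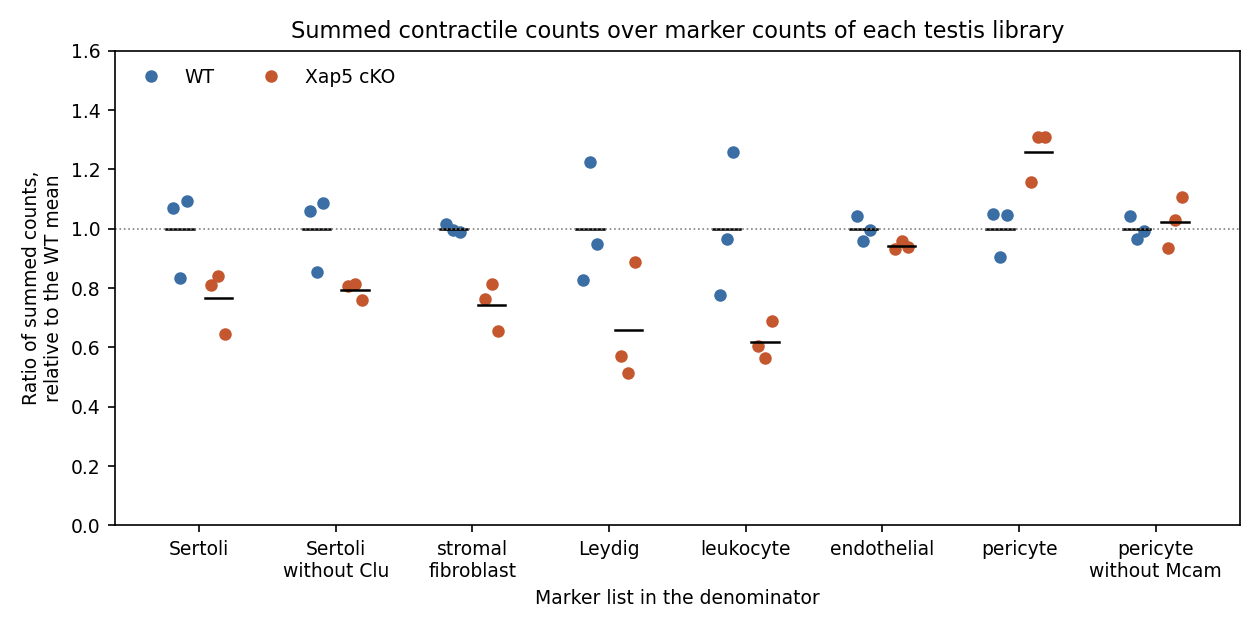
Summed counts of the 10 contractile genes over the summed counts of each marker list within a testis library, each ratio divided by its WT mean (WT in blue, Xap5 cKO in orange, black lines the means, n = 3). In cKO testes the mean lies at 0.744 of WT against stromal fibroblast, 0.619 against leukocyte, 0.942 against endothelial and 1.26 against pericyte markers, and at 1.02 against pericyte markers without Mcam.

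The other genes of the pathway were followed with lists chosen for their roles. Single genes are given by TMM below, and Sertoli scaling lowers the median of all genes by 0.82 on the log2 scale. Of 13 genes that set myosin activity, 7 rose and 2 fell at TMM scaling, where 25% of all genes rose and 28.1% fell. At Sertoli scaling 0 rose and 12 fell, where 0.963% of all genes rose and 66.3% fell. Mylk, which encodes myosin light chain kinase, had 193, 173 and 219 CPM in WT and 292, 275 and 242 CPM in cKO testes, a log2 value of 0.47 ± 0.10 (SE; adjusted p = 0.00324 by edgeR's quasi-likelihood test) that was -0.34 at Sertoli scaling. Ppp1r14a, which encodes the myosin phosphatase inhibitor CPI-17, rose by 0.86 ± 0.24 and the nonmuscle myosin gene Myh9 by 0.50 ± 0.08 on the log2 scale by TMM. Myh10, another nonmuscle myosin gene, fell by 0.51 on the same scale. The phosphatase genes Ppp1cb, Ppp1r12a and Ppp1r12b lay at -0.02, -0.01 and -0.04 by TMM and did not pass the test.

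Of 19 genes of filaments and dense bodies, 12 rose and 0 fell at TMM scaling (all genes 25% and 28.1%), and 0 rose and 5 fell at Sertoli scaling (all genes 0.963% and 66.3%). The largest log2 values by TMM were those of Synm, which encodes synemin, a partner of desmin in intermediate filaments, at 1.12 ± 0.08 (SE), and of Cnn3, which encodes the acidic calponin, at 0.97 ± 0.13. Synm had 33.3, 32 and 33 CPM in WT and 72.2, 69.1 and 71.6 CPM in cKO testes, with adjusted p = 1.42e-05 by edgeR's quasi-likelihood test and a log2 value of 0.29 at Sertoli scaling that did not pass. Its libraries agreed closely within each genotype, as those of Des did. Of the actin genes other than the 2 members, Actb (β-actin) rose by 0.45 ± 0.05 and Actg1 (cytoskeletal γ-actin) by 0.26 ± 0.04 on the log2 scale by TMM. The skeletal Acta1 had 5 to 15 counts in each library and did not pass, and the cardiac Actc1 had 0 to 39 counts and was not tested. Both of the called actins fell at Sertoli scaling.

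Of 7 genes of the SRF and myocardin axis, 5 rose and 0 fell at TMM scaling (all genes 25% and 28.1%), and 0 rose and 2 fell at Sertoli scaling (all genes 0.963% and 66.3%). Srf had 92.4, 88.1 and 96.8 CPM in WT and 139, 135 and 131 CPM in cKO testes, with a log2 value of 0.55 ± 0.06 (SE; adjusted p = 0.000128 by edgeR's quasi-likelihood test) and of -0.27 at Sertoli scaling. Myocd, which encodes the muscle-restricted coactivator myocardin, had 9.23, 7.19 and 7.56 CPM in WT and 14.5, 12.6 and 10 CPM in cKO testes, 0.63 ± 0.20 on the log2 scale by TMM (adjusted p = 0.0232 by edgeR's quasi-likelihood test) and -0.18 at Sertoli scaling. Fhl2, a LIM protein gene and SRF partner, had the largest rise of the list at 0.82 ± 0.10 by TMM. Mrtfa, which encodes the actin-sensing coactivator, lay at -0.16 ± 0.08 and did not pass. Of 19 genes of calcium handling and contractile receptors, 9 rose and 1 fell by TMM, and 1 rose and 4 fell at Sertoli scaling, beside the same shares of all genes. The vasopressin receptor gene Avpr1a rose by 1.41 ± 0.19 and the PDGF receptor gene Pdgfra by 1.05 ± 0.10 on the log2 scale by TMM, and Atp2a2, which encodes the calcium pump of the sarcoplasmic reticulum, fell by 0.35. Avpr1a was the 1 gene of the list that also rose at Sertoli scaling, by 0.60 on the log2 scale. Pdgfra is also known from stromal and Leydig lineage cells.

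The lists of other cell types moved in different directions in the testis. Of the genes tested at TMM scaling, where 25% of all genes rose and 28.1% fell, 9 of 10 Sertoli, 7 of 8 stromal fibroblast, 7 of 8 leukocyte and 3 of 6 Leydig markers rose, and 3 of 8 pericyte markers rose and 1 fell. At Sertoli scaling, where 0.963% of all genes rose and 66.3% fell, these became 1, 1, 0, 1 and 0 that rose. In the same order of lists, 2, 1, 0, 0 and 3 markers fell. That scaling holds the sum of the Sertoli markers level, so their own counts under it are not a result. Of the endothelial markers 2 of 8 rose by TMM, 4 of 8 without WT replicate 3 and 0 at Sertoli scaling, where 2 fell. Of the germ cell lists at TMM scaling, 7 of 7 pachytene and 6 of 8 spermatogonial markers fell and 1 spermatogonial marker rose. Of the skeletal muscle and red blood cell lists, 5 genes each were tested and 0 passed in edgeR's test, with 1 skeletal muscle gene and 0 red blood cell genes at an unadjusted p under 0.05 and the same numbers called by DESeq2. Without WT replicate 3, 7 of 10 contractile genes rose and 0 fell, where 4331 of all 17186 genes tested rose and 4845 fell.

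**Figure D4:**
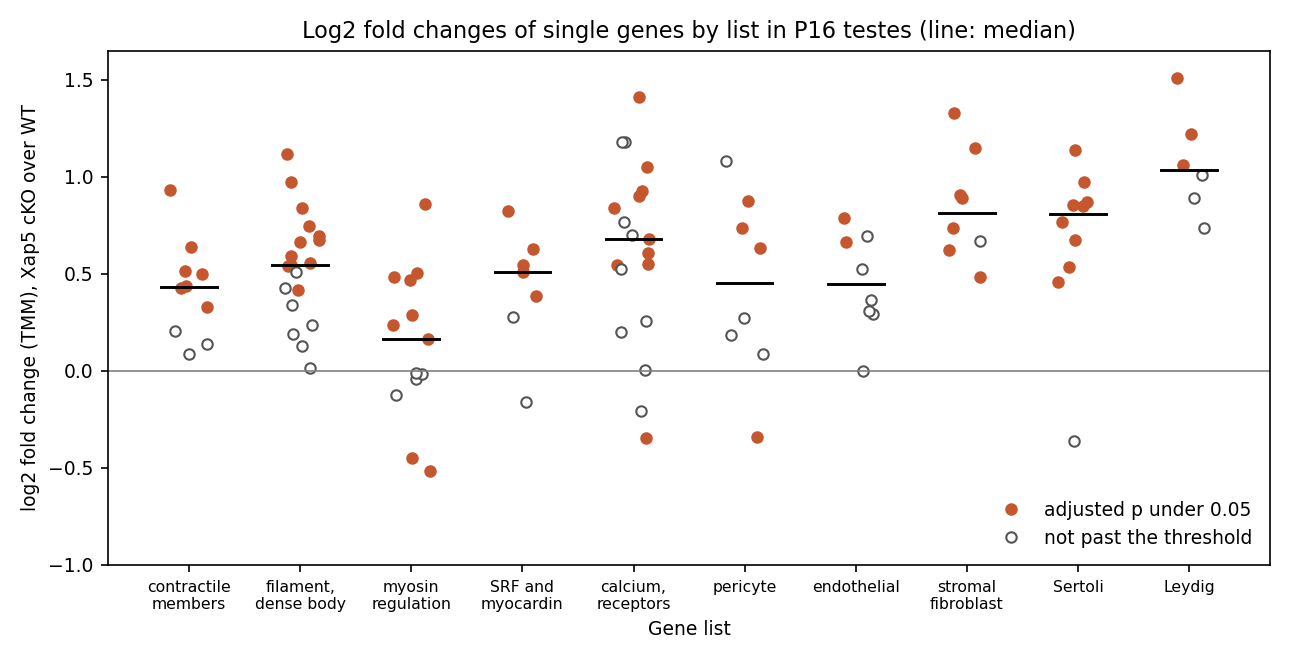
Log2 fold change of each tested gene between Xap5 cKO and WT testes at TMM scaling, by gene list, with filled points past the adjusted p threshold and black lines at the list medians. The contractile genes center on 0.43, and at Sertoli scaling, which is not drawn, the median of all genes moves from -0.01 to -0.82 and that of the contractile genes to -0.38.

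In cauda sperm, Actg2 stood apart from the other contractile genes. In WT sperm it had 45.5 ± 8.76 CPM per kb (SD, n = 3), against 2.18 ± 0.202 for Acta2, the next highest. Within each WT sperm library the Actg2 count was 11.5 to 20 times the Acta2 count, where in WT testes it was 0.0324 to 0.0355 of it. The γ-actin gene is known to be transcribed in postmeiotic male germ cells as well as in smooth muscle. The tissues were counted in separate tables, so these ratios within a library are set side by side and were not tested.

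Actg2 levels were 86.1, 59.8 and 66.8 CPM for WT sperm against 136, 117 and 148 CPM for the Xap5l KO, without overlap. It was the only contractile gene that rose of the 9 tested (1 of 9, where 9.02% of all 20945 genes tested rose), and 0 of 9 fell, where 3.07% of all genes fell (0 also with DESeq2, and 1, Smtn, at an unadjusted p under 0.05). With over 2-fold, 0 of 9 passed in either direction, against 7.59% of all genes higher and 1.27% lower, by edgeR, DESeq2 or an unadjusted p. The Xap5l KO libraries lay wholly above WT for 1 of 9 and wholly below for 1 of 9, against 19.2% of all genes each way. The rise was 1.89-fold (interval 1.33 to 2.68; adjusted p = 0.0325 by edgeR's quasi-likelihood test). In the fits that leave out 1 library the log2 value ran from 0.80 to 1.07. The adjusted p was 0.163 without WT replicate 2, 0.15 without WT replicate 3 and 0.084 without the second Xap5l KO library, but in each of these fits only 1 gene of the whole table rose, so the lost call is not particular to Actg2. It was 0.0919 without the first Xap5l KO library, where 483 genes of the whole table rose. Without both WT replicate 1 and Xap5l KO replicate 1 the log2 value was 1.16, in a fit that called 0 genes of the whole table. As a multiple of the summed counts of the other 9 genes, Actg2 was 4.99, 4.49 and 5.14 in WT and 8.2, 10.2 and 15.7 in Xap5l KO sperm, without overlap.

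The other 9 genes were scarce in sperm. Acta2 lay at 4.31, 5.18 and 4.88 CPM for WT and 7.4, 5.31 and 3.35 CPM in Xap5l KO sperm, which overlapped. Myl9 had 3.97 CPM in WT replicate 1 and 1.28 and 1.36 CPM in the other WT libraries, against 1.66, 0.74 and 1.24 CPM in Xap5l KO sperm. Smtn lay at 1.91, 1.45 and 2.05 CPM for WT against 1.14, 1.23 and 0.755 CPM in Xap5l KO sperm, without overlap, and its 0.577-fold value (interval 0.347 to 0.957) did not pass (adjusted p = 0.124 by edgeR's quasi-likelihood test). Myh11, Tagln, Cnn1, Des and Tpm2 had means of 0.361 to 1.54 CPM in WT sperm and overlapped between genotypes. Lmod1, at 2 to 18 counts in each library, was not tested. At 2 to 294 counts a library for these 9 genes, only large changes could have been seen.

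**Figure D5:**
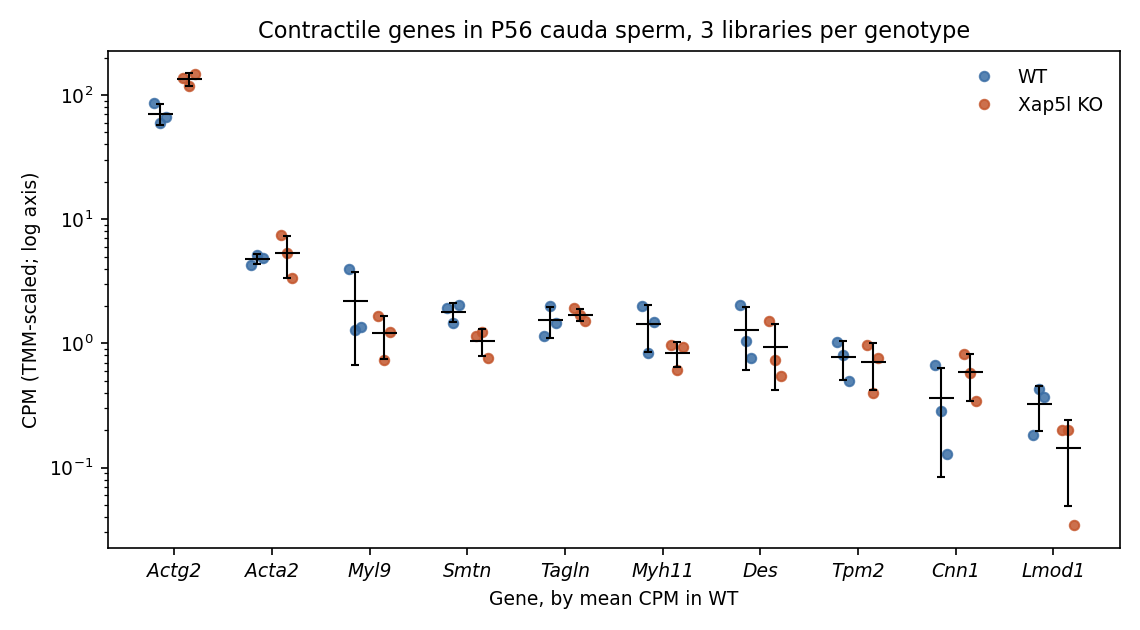
CPM of the 10 contractile genes in each cauda sperm library on a log axis, WT in blue and Xap5l KO in orange, with the mean and SD in black (n = 3). Actg2 lies at 59.8 to 148 CPM, above the other 9 genes, and its Xap5l KO libraries lie above the WT libraries.

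Markers of other cells in the sperm libraries moved with genotype too, and their part in the Actg2 value was not tested. The 8 leukocyte markers, led by Lyz2, summed to 896 to 1050 CPM in WT libraries and 241 to 600 CPM in Xap5l KO libraries, with 2 of 8 falling. The 7 pachytene markers, led by Pgk2, summed to 1270 to 2150 and 2500 to 3070 CPM, with 4 of 7 rising, where 9.02% of all sperm genes rose and 3.07% fell. The 10 Sertoli markers, led by Clu, summed to 642 to 761 and 1050 to 1330 CPM, with 0 of 8 tested rising and 1 falling. The higher sum rests on Clu, which averaged 687 of a mean sum of 708 CPM across WT libraries. Across the knockout libraries Clu averaged 1200 of 1220 CPM. Only Clu and Gata1 of the tested Sertoli markers had log2 values above 0, at 0.81 and 0.10, and the median of the 8 was -0.505. The 6 Leydig markers, led by Insl3, summed to 15.1 to 33.6 and 7.24 to 14.7 CPM. The 7 epididymal epithelium markers, led by Crisp1, overlapped at 5220 to 7270 and 3930 to 5270 CPM, as did the 7 spermatid markers, led by Smcp, at 50400 to 127000 and 40100 to 77500 CPM. The 5 red blood cell genes overlapped at 4510 to 22800 and 1640 to 5550 CPM.

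Few pathway genes passed in sperm, where 9.02% of all 20945 genes tested rose and 3.07% fell in edgeR's test. At an unadjusted p under 0.05 in that test, 3888 of all genes were higher and 3128 lower. With DESeq2, 2921 of all genes were higher and 1163 lower. Of the 13 genes that set myosin activity 0 passed in edgeR's test, with 1 higher and 6 lower at an unadjusted p under 0.05 and 2 lower with DESeq2. Of the 19 filament and dense body genes 0 passed, with 2 higher and 6 lower at an unadjusted p under 0.05 and 1 higher with DESeq2. Mylk averaged 29.1 ± 7.25 CPM for WT against 19.6 ± 7.3 CPM in Xap5l KO sperm (SD, n = 3), and Srf 36.1 ± 6.17 and 41.8 ± 12.5 CPM, neither past the test. Myocd was nearly absent, at 0 to 0.257 CPM, and was not tested. Actb averaged 329 ± 96.3 CPM for WT against 265 ± 100 CPM in Xap5l KO sperm, Actg1 293 ± 27 and 229 ± 84.2 CPM, and Acta1 and Actc1 stayed at 0.0343 to 1.26 CPM, all overlapping and none of the 4 past the test. Of the 18 calcium handling and receptor genes tested 3 rose and 0 fell, with 1 lower at an unadjusted p under 0.05 and 1 with DESeq2, and each of the 3 had group means under 5 CPM. Those 3 were Cacna1c, Agtr1a and Prkg1, named after their values were seen.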

How the data were processed

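Poly(A) RNA from P16 testes and P56 cauda sperm was sequenced as paired 150-base reads. Per the labels and the study's methods, the authors mapped reads to GRCm38 with HISAT2 2.1.0 and assembled transcripts with StringTie; FastQC 0.11.2, Trimmomatic 0.36 and DESeq2 1.12.4 are also named. The deposited values are raw counts per gene, 1 table per tissue; the counting tool and its strand setting are not given in the sources used here. Counts were tested with edgeR 4.0.16 (glmQLFit, TMM scaling, filterByExpr, genotype only, each tissue alone) in R 4.3.3, Benjamini-Hochberg adjusted over 16821 testis and 20945 sperm genes. The script was tested on simulated data. DESeq2 1.42.0, other scalings, filters, a replicate block and fits leaving out 1 library were alternatives. Levels per kb used merged GENCODE M21 exons. The members, lists and tests were chosen with earlier results of these data known. Named were the 10 members, the targeted genes, up to 2 rises and 2 falls per pathway list at 5 CPM or more, Srf, Myocd, Mylk, other actins, the top gene of each marker list and the 5 nearest genes. A fall in the myosin list and a pair of actin stretches are not reported here. Mrtfa, Ppp1cb, Ppp1r12a, Ppp1r12b and the muscle gene Mb were named after their values were seen. The design text gives 3 biological replicates per genotype; p-values measure the spread between these libraries. Depth limits precision for the scarce sperm genes.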

Additional observations from a re-analysis of the deposited data

How the results depend on the processing

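In testes, 7 rises and 0 falls were found with no filter, a minimum of 10 counts, RLE size factors, library size alone, DESeq2 and the replicate block. Fits leaving out 1 library gave 5 to 7 rises, where 3464 to 4331 of all genes rose. At an adjusted p under 0.01 there were 4, where 2945 of all 16821 genes rose. Scaling to Sertoli markers gave 0 rises and 5 falls, where 162 of all 16821 genes rose and 11146 fell. Without Clu (chosen after seeing the data) it gave 0 rises and 6 falls, where 253 of all genes rose and 11219 fell. By its construction, each of these scalings measures a gene against Sertoli transcripts. The log2 values that changed sign under the first and second of these were -0.489 and -0.438 for Acta2, -0.73 and -0.679 for Actg2, -0.38 and -0.325 for Myh11, -0.616 and -0.567 for Tagln, -0.664 and -0.629 for Cnn1, -0.179 and -0.125 for Myl9, -0.383 and -0.337 for Tpm2, -0.323 and -0.264 for Lmod1, and -0.285 and -0.247 for Smtn. Leaving out 1 library also turned Actg2 (range -0.0328 to 0.193) and Cnn1 (-0.0486 to 0.315), neither past the test.

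In sperm, the 1 rise, Actg2, became 0 with library size alone, an adjusted p under 0.01, the replicate block (adjusted p = 0.0545 in edgeR) or without WT replicate 1 and Xap5l KO replicate 1 together, and was 0 to 1 in fits leaving out 1 library. At an adjusted p under 0.01 and without both of those libraries 0 genes of the whole table passed, and only 1 gene rose in each fit that left out the second or the third WT library or the second of the Xap5l KO, so these losses are not particular to Actg2, whose log2 value stayed at 0.80 to 1.16. For library size alone and the block, with 1555 and 1215 rises in all, the cause was not tested. Over 2-fold the count was 0 to 1 in those fits, and 1 gene fell at an unadjusted p under 0.05. Of values that missed the test, leaving out 1 library turned Acta2 (-0.149 to 0.48), Tagln (-0.0382 to 0.359), Des (-0.974 to 0.0209) and Tpm2 (-0.422 to 0.149), and without those replicates 1 together Acta2 was -0.132 and Tagln -0.0343.

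Same-numbered libraries did not deviate together in testes (correlations -0.0452 to 8.08e-05). In sperm, WT replicate 1 and Xap5l KO replicate 1 correlated at 0.17, the highest value for either library. They also had the lowest TMM factors, 0.821 and 0.808, against 1.08 to 1.12 in the other sperm libraries. Sperm replicates 2 and 3 correlated with their own number at -0.0191 and -0.135. Not every library correlated best with its own number, and the numbers were not taken as pairs. Summing the counts of the muscle actin genes Acta2, Actg2, Acta1 and Actc1 gave log2 values of 0.32 in testes and 0.87 in sperm. No member had numbered duplicate rows, so that alternative gave no value.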

Other observations

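The contractile genes did not keep one pattern over the 6 testis libraries. On centered log2 CPM, Tpm2 and Acta2 lay nearest the mean pattern of the 10, with root mean square differences of 0.0364 and 0.0529, and Des and Tagln farthest, with 0.274 and 0.236. Of 12677 genes at 5 CPM or more, the 5 nearest to that mean pattern were Hnrnpa3 (0.0333), Accs (0.0411), Zfp790 (0.0412), Mob4 (0.0418) and Eogt (0.0442). Hnrnpa3, which encodes an RNA-binding protein, had 122 ± 13.1 CPM in WT and 157 ± 12.4 CPM in Xap5 cKO testes (SD, n = 3). None of these 5 is a smooth muscle gene, and likeness over 6 libraries is a description only.

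In WT testis replicate 3, the library with fewer pachytene transcripts, 8 of the 10 contractile genes had 1.08 to 1.32 times the mean of the other WT libraries, Des had 1.02 times and Smtn 0.932 times.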
